A study of Mus musculus with 6 samples.

Results

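The 10 genes described here encode heavy chains of class II myosin, the motor of muscle contraction and of cytoplasmic contractility. They were taken by name from a table of 55414 mouse gene identifiers. Myh3, Myh8, Myh1, Myh2, Myh4, Myh7 and Myh6 encode sarcomeric chains, Myh9 and Myh10 non-muscle chains and Myh11 the smooth muscle chain. RNA was sequenced from C2C12 cells, an immortalised mouse myoblast line, labelled wild type in genotype in all groups. One group of 3 libraries (siUsf2 1 to 3) came from cells transfected by lipofectamine with an siRNA against Usf2, an E-box binding transcription factor, and the other group of 3 (siControl 1 to 3) from cells given a negative control siRNA. The labels describe culture in growth medium with fetal bovine serum for both groups and give neither a time after transfection nor a statement that replicates were separate cultures. What the p-values weigh is thus the scatter among these libraries, which may be technical. The series asks what USF2 does in these cells.

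A class II myosin is built from a pair of heavy chains, each with an actin-binding ATPase head and a long coiled-coil tail, and from light chains bound at the neck. In sarcomeres the tails pack into thick filaments, and the heavy chain isoform largely sets the speed of shortening. Myoblasts that leave the cell cycle and fuse begin with the embryonic and perinatal chains, and adult fibres later replace them with slow or fast chains. Non-muscle heavy chains form short filaments on cortical actin and stress fibres, and serve migration, adhesion and cytokinesis in most cells.

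Library depth was 15817183 and 14932880 counts in siUsf2 1 and 2, 3414565 in the library labelled siUsf2 3, and 14790997 to 17715250 in siControl. Usf2 itself was at 17.1 and 15.3 CPM (CPM being counts scaled to the library total) in siUsf2 1 and 2 and at 30.8 CPM in the library labelled siUsf2 3, against 26.2, 31.2 and 23.0 CPM in siControl 1 to 3. The targeted gene was thus below every siControl library in siUsf2 1 and 2, while its level in the library labelled siUsf2 3 lay within the siControl range and goes against the label. Pseudogenes took 0.974% of the counts of that library, against 14.04% to 15.3% in the other 5, so its reads were assigned differently. Its values are named beside those of siUsf2 1 and 2. Heavy chain results are given from a fit of 5 libraries (siUsf2 1 and 2 against siControl) and from a fit of all 6.

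The sarcomeric genes are close relatives, and this bears on how reads can be told apart. The coding sequences of Myh1 and Myh2 were 91.0% identical after alignment, those of Myh1 and Myh4 90.1% and those of Myh6 and Myh7 91.7%. Myh3 was 80.2% identical to Myh1, and Myh9 54.0%. Of all 50-base windows of 1 coding transcript per gene, 32.1% in Myh1, 28.9% in Myh2, 28.2% in Myh7, 22.6% in Myh6, 21.4% in Myh8 and 18.9% in Myh4 were also found in a transcript of another gene. The share was 4.81% for Myh3, 1.12% for Myh9, 0.947% for Myh10 and 0.406% for Myh11. No source used here gives the read length or the treatment of multiply mapped reads, so the split among Myh1, Myh2, Myh4 and Myh8, and that between Myh6 and Myh7, is uncertain. The 50 coding bases below are the first stretch of the alignment in which Myh1, Myh2, Myh4 and Myh8 are identical. They are shown because a read lying wholly inside them cannot be assigned to 1 of these 4 genes, while Myh9 and Myh10 differ at 16 and 19 of the bases. Capitals mark bases that differ from Myh1 (GENCODE M21 transcripts, 5′ to 3′).
Myh1: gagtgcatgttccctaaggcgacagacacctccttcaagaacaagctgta
Myh2: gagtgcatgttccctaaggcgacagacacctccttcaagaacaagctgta
Myh4: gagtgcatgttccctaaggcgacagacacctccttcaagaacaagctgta
Myh8: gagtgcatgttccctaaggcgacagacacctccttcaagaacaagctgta
Myh3: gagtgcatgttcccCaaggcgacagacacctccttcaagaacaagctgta
Myh7: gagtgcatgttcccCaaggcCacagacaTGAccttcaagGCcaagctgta
Myh6: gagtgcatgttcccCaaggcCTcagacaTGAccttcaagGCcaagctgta
Myh9: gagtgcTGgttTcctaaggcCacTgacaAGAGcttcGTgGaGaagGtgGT
Myh10: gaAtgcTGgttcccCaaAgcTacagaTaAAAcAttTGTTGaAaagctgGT

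All 7 sarcomeric heavy chain genes fell in siUsf2 1 and 2, with log2 fold changes of -2.73 to -4.40, while neither Myh9 nor Myh10 passed the test. Across all genes of the 5-library fit, 6.4% were called lower (1102 of 17217, edgeR adjusted p below 0.05) and 4.97% higher (855). With upper-quartile normalization these calls were 900 lower and 1124 higher. Myh2, Myh4, Myh6, Myh7 and Myh8 passed the filter on low counts through siControl libraries alone, so they could enter the test only by being high there. Myh1, Myh3, Myh9 and Myh10 would have passed through siUsf2 1 and 2 as well. Myh11 did not pass. In these bulk libraries, fewer cells of a differentiated type and less RNA per cell cannot be told apart.

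Myh3 encodes the embryonic heavy chain, the first sarcomeric isoform of differentiating muscle, and was the most abundant sarcomeric gene in every library. The gene (ENSMUSG00000020908) lies on chromosome 11 at 67078300 to 67102291 (GRCm38, plus strand). It held 72.5 and 80.0 CPM in siUsf2 1 and 2 and 200.03 CPM in the library labelled siUsf2 3, against 695, 596 and 793 CPM in siControl 1 to 3. The groups did not overlap, and the library labelled siUsf2 3 lay between the other siUsf2 libraries and siControl. Of all genes tested in the 6 libraries, 11.2% had every siUsf2 library below every siControl library. Myh3 averaged 76.2 ± 5.35 CPM in siUsf2 1 and 2 (SD, n = 2) and 694 ± 98.6 CPM in siControl (SD, n = 3). This was a log2 fold change of -3.20 (edgeR adjusted p = 2.17e-15, SE 0.12), the 4th smallest p of the 17217 genes. With all 6 libraries the log2 fold change was -2.62 (SE 0.44) and did not pass (edgeR adjusted p = 0.14).

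Myh8 encodes the perinatal heavy chain, which follows the embryonic one in developing muscle. It lies on chromosome 11 at 67277124 to 67308634 (ENSMUSG00000055775, plus strand). It had 10 and 6 counts in siUsf2 1 and 2 and 1 count in the library labelled siUsf2 3, against 29, 51 and 91 counts in siControl 1 to 3. In CPM these were 0.632, 0.402 and 0.293 in siUsf2 1 to 3, against 1.96, 3.19 and 5.14 in siControl 1 to 3. Every siUsf2 library lay below every siControl library, as for 11.2% of all genes tested in the 6, and the siControl values themselves ranged widely. On the log2 scale the fold change was -2.73 in the 5 libraries (edgeR adjusted p = 2.13e-04, SE 0.48) and -2.83 in the 6 (edgeR adjusted p = 0.151, SE 0.52).

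Among the adult fast chains, Myh1 (type IIx) was the second most abundant sarcomeric gene. It lies on chromosome 11 at 67200052 to 67224575 (ENSMUSG00000056328, plus strand). It held 6.13 and 8.10 CPM in siUsf2 1 and 2 and 13.8 CPM in the library labelled siUsf2 3, against 60.4, 61.1 and 84.2 CPM in siControl 1 to 3. The groups were far apart, with every siUsf2 library below every siControl library, as for 11.2% of all genes tested in the 6. The library labelled siUsf2 3 was again the highest of its group. The log2 fold change was -3.29 (edgeR adjusted p = 1.25e-10, SE 0.17) in the 5 libraries. With all 6 it was -2.95 (SE 0.33) and did not pass (edgeR adjusted p = 0.0694).

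Myh2 encodes the type IIa chain of fast oxidative fibres and lies just before Myh1, at 67171027 to 67197517 (ENSMUSG00000033196, plus strand). Myh2 had 18 and 7 counts in siUsf2 1 and 2 and 3 counts in the library labelled siUsf2 3, against 88, 79 and 101 counts in siControl 1 to 3. In CPM these were 1.14, 0.469 and 0.879 in siUsf2 1 to 3, against 5.95, 4.94 and 5.70 in siControl 1 to 3. All siUsf2 libraries lay below all siControl libraries, as for 11.2% of all genes tested in the 6. Fitted to the 5 libraries, the log2 fold change was -2.77 (edgeR adjusted p = 1.63e-06, SE 0.36). Fitted to the 6, it was -2.76 and did not pass (edgeR adjusted p = 0.0743, SE 0.37).

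Myh4 encodes the type IIb chain of the fastest glycolytic fibres, at 67238029 to 67260446 on chromosome 11 (ENSMUSG00000057003, plus strand). It had 1 and 0 counts in siUsf2 1 and 2 and 2 counts in the library labelled siUsf2 3, against 12, 6 and 14 counts in siControl 1 to 3. At the depth of the library labelled siUsf2 3 these 2 counts are 0.586 CPM (95% Poisson interval 0.0709 to 2.12), within the siControl range of 0.375 to 0.811 CPM. Relative to depth, the summed count of siUsf2 1 and 2 was 0.0493 times that of siControl, with an exact interval of 0.00121 to 0.295 for counting error. Myh4 passed in the 5 libraries (edgeR adjusted p = 0.0216). The call ended without siUsf2 1 (adjusted p = 0.109) and without siUsf2 2 (adjusted p = 0.209), and Myh4 was no longer tested without siControl 1 or siControl 3. It did not pass the count filter of the 6-library fit.

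Myh7, the slow and beta-cardiac chain, and Myh6, the alpha-cardiac chain, lie next to each other on the minus strand of chromosome 14. Myh7 occupies 54970684 to 54994626 (ENSMUSG00000053093) and Myh6 54941921 to 54966927 (ENSMUSG00000040752). Myh7 held 1.14 and 0.469 CPM in siUsf2 1 and 2 and 2.05 CPM in the library labelled siUsf2 3, against 8.52, 7.37 and 12.1 CPM in siControl 1 to 3. All siUsf2 values were below all siControl values, as for 11.2% of all genes tested in the 6 libraries. The log2 fold change of Myh7 was -3.53 in the 5 libraries (edgeR adjusted p = 2.03e-08, SE 0.34) and -3.16 in the 6 (edgeR adjusted p = 0.128, SE 0.53).

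Myh6 had 3 and 4 counts in siUsf2 1 and 2 and 1 count in the library labelled siUsf2 3, against 63, 74 and 104 counts in siControl 1 to 3. Here the library labelled siUsf2 3 sat beside the other siUsf2 libraries, at 0.293 CPM against 0.190 and 0.268 CPM in siUsf2 1 and 2, with siControl at 4.26 to 5.87 CPM. Relative to depth, the summed counts of siUsf2 1 and 2 were 0.0458 times those of siControl (exact interval 0.0182 to 0.0959, counting error only). Over 5 libraries the log2 fold change of Myh6 was -4.40 (edgeR adjusted p = 3.06e-08, SE 0.46). With all 6 libraries, where 0.042% of genes were called lower, Myh6 was the 1 heavy chain gene called, at -4.35 (edgeR adjusted p = 0.049, SE 0.33). That call ended when any siControl library was left out in turn (adjusted p 0.294 to 0.349) and likewise without siUsf2 1 (adjusted p = 0.346) or siUsf2 2 (adjusted p = 0.303). With RLE or upper-quartile normalization the adjusted p was 0.0529 and 0.0617.

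Genes that overlap the members carried few counts. Myhas, antisense to Myh1, had 0 counts in siUsf2 1 to 3 and 2, 3 and 5 counts in siControl 1 to 3. No source used here gives the strand setting of the counting, so reads of such pairs cannot be told apart. The microRNA genes Mir208a within Myh6 and Mir208b within Myh7 had 0 counts in all libraries, as did Mhrt, antisense to Myh7.

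The non-muscle genes went the other way in level but did not pass. Myh9 encodes the heavy chain of non-muscle myosin IIA and lies on chromosome 15 at 77760587 to 77842175 (ENSMUSG00000022443, minus strand). It held 2267 and 2324 CPM in siUsf2 1 and 2 and 2918 CPM in the library labelled siUsf2 3, against 2197, 2046 and 1868 CPM in siControl 1 to 3. Every siUsf2 library was above every siControl library, as for 11.4% of the genes tested in the 6 libraries (21.8% in the 5), and the library labelled siUsf2 3 was the highest. Its log2 fold change was 0.16 in the 5 libraries (edgeR adjusted p = 0.276, SE 0.09) and 0.26 in the 6 (edgeR adjusted p = 0.532, SE 0.12).

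Myh10, the non-muscle IIB heavy chain, lies on chromosome 11 at 68691559 to 68816632 (ENSMUSG00000020900, plus strand), apart from the sarcomeric cluster. It held 172 CPM in each of siUsf2 1 and 2 and 175 CPM in the library labelled siUsf2 3, against 155, 152 and 156 CPM in siControl 1 to 3. The values were tight within groups and did not overlap, but the step was small. Such a separation upwards was found for 11.4% of the genes tested in the 6 libraries. In log2 terms the fold change was 0.15 (edgeR adjusted p = 0.285, SE 0.08) in the 5 libraries and 0.14 (edgeR adjusted p = 0.551, SE 0.06) in the 6.

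Myh11, the smooth muscle heavy chain on chromosome 16 at 14194535 to 14291372 (ENSMUSG00000018830, minus strand), was near 0. It had 1 and 0 counts in siUsf2 1 and 2 and 0 counts in the library labelled siUsf2 3, against 2, 1 and 0 counts in siControl 1 to 3. A count of 0 allows up to 0.201 CPM in siUsf2 2, 0.879 CPM in the library labelled siUsf2 3 and 0.169 CPM in siControl 3 (3 counts, counting error only). The two-sided 95% Poisson intervals of the plot of CPM by gene reach 0.247, 1.08 and 0.208 CPM for the same libraries. No difference was detectable at this depth.

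**Figure D1:**
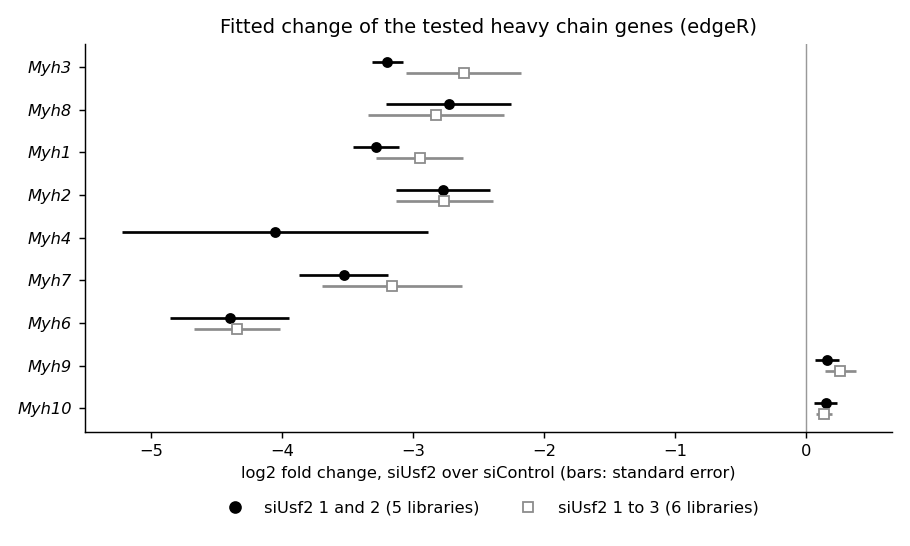
Fitted log2 fold change (siUsf2 over siControl) with standard errors for the heavy chain genes that were tested, from 5 libraries (filled circles) and from 6 (open squares). The 7 sarcomeric genes lie between -2.73 and -4.40 in the 5 libraries, and Myh9 and Myh10 at 0.16 and 0.15.

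In all, 9 of the 10 members were tested in the 5 libraries, with 7 called lower, 0 called higher and a median log2 fold change of -3.20, against -0.01 over all tested genes. The share called lower over all genes was 6.4%. Myh2, Myh4, Myh6, Myh7 and Myh8 entered the test only by being high in siControl, so the count and median are no independent support. Myh1 and Myh3 do not have this limit. Higher calls over all genes numbered 855 by edgeR and 726 by DESeq2, and neither Myh9 nor Myh10 was called by either tool. In the 6-library fit 8 members were tested, with 1 called lower and a median of -2.80, against -0.01 over all tested genes. The share called lower over all genes was 0.042% in that fit. There Myh2, Myh6, Myh7 and Myh8 would not have passed the count filter through siUsf2 libraries alone. Of the 7 sarcomeric genes, 6 lay below every siControl library in all 3 siUsf2 libraries, where 11.2% of all genes tested did so, and Myh4 was the exception. In siUsf2 1 and 2 alone all 7 did so, as did 19.5% of all genes tested. The 6-library calls depended on the tool and the filter: DESeq2 called Myh1 (adjusted p = 2.64e-12), Myh2 (adjusted p = 7.7e-10), Myh3 (adjusted p = 8.73e-06), Myh7 (adjusted p = 1.69e-06) and Myh8 (adjusted p = 4.87e-04) as well. By limma-voom, Myh1 (adjusted p = 0.0325), Myh3 (0.0412) and Myh6 (0.0412) were called, and Myh2, Myh7 and Myh8 were not. With no filter, edgeR called Myh1 (adjusted p = 0.0162), Myh2 (0.02), Myh6 (0.00499) and Myh7 (0.026). Myh3 (0.251) and Myh8 (0.071) were not called there. Relative to the siControl mean, the library labelled siUsf2 3 was at a log2 ratio of -1.80 for Myh3, where siUsf2 1 and 2 were at -3.26 and -3.12. For Myh1 it was at -2.32, against -3.48 and -3.08 in siUsf2 1 and 2, and for Myh6 at -4.07, against -4.70 and -4.20.

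Levels of different genes were compared per kilobase of exon (CPM per kb). In siUsf2 1 and 2 the order was Myh9, Myh10, Myh3, Myh1, whereas in the library labelled siUsf2 3 and in every siControl library Myh3 stood above Myh10. Myh9 was at 309 ± 5.45 CPM per kb in siUsf2 1 and 2 and 274 ± 22.2 in siControl. Myh3 was at 12.6 ± 0.884 CPM per kb in siUsf2 1 and 2 and 115 ± 16.3 in siControl, and Myh10 at 19.9 ± 0.0468 and 17.8 ± 0.229 in the same groups (SD, n = 2 and n = 3). Myh1 followed at 1.12 ± 0.219 CPM per kb in siUsf2 1 and 2 and 10.8 ± 2.13 in siControl. Below it, Myh2 and Myh7 did not differ beyond their spread in siUsf2 1 and 2, with 0.132 ± 0.0778 and 0.126 ± 0.0742 CPM per kb, and neither did Myh2 and Myh6 in siControl, with 0.909 ± 0.0869 and 0.796 ± 0.137.

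The sarcomeric part of the heavy chain pool was smaller in siUsf2. Per length, the 7 sarcomeric genes made up 3.97% and 4.24% of the level of all 10 genes in siUsf2 1 and 2, with 7.99% in the library labelled siUsf2 3, against 28.9%, 27.5% and 35.6% in siControl 1 to 3. The groups did not overlap, and the library labelled siUsf2 3 was nearer to siUsf2 1 and 2 than to siControl. Myh9 exceeded Myh3 per length 25.5 and 23.7 times in siUsf2 1 and 2 and 11.9 times in the library labelled siUsf2 3, against 2.58, 2.80 and 1.92 times in siControl 1 to 3. All 10 genes together took 0.252% and 0.259% of counts in siUsf2 1 and 2, with 0.331% in the library labelled siUsf2 3, against 0.287% to 0.313% in siControl.

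Within the sarcomeric genes the make-up moved much less than the total. Myh3 held 89.2% and 89.7% of the sarcomeric level per length in siUsf2 1 and 2, with 92.1% in the library labelled siUsf2 3, against 89.9%, 88.5% and 88.0% in siControl 1 to 3. Myh1 held 7.20% and 8.66% in siUsf2 1 and 2, with 6.05% in the library labelled siUsf2 3, against 7.46%, 8.65% and 8.91% in siControl 1 to 3. The ranges of siUsf2 1 and 2 overlapped those of siControl for both genes. Myh6 was an exception, with 0.229% and 0.294% in siUsf2 1 and 2, with 0.132% in the library labelled siUsf2 3, against 0.540%, 0.673% and 0.639% in siControl 1 to 3, values that rest on 3, 4 and 1 counts in siUsf2 1 to 3. Shares of non-muscle counts varied little, as Myh9 took 92.9% and 93.1% of the counts of Myh9 and Myh10 in siUsf2 1 and 2, with 94.3% in the library labelled siUsf2 3, against 92.3% to 93.4% in siControl.

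**Figure D2:**
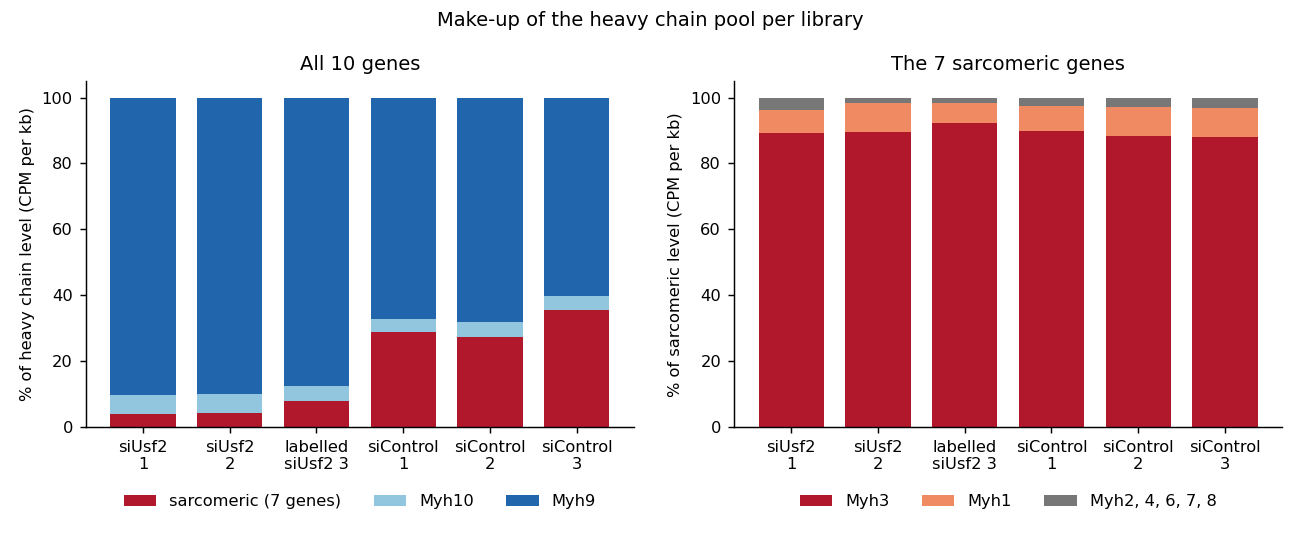
Share in the summed level per kilobase of exon, by library, for the heavy chain genes (left, with the 7 sarcomeric genes as 1 class and Myh11 too low to be seen) and for the 7 sarcomeric genes (right). The sarcomeric share was 3.97% and 4.24% in siUsf2 1 and 2 and, for the library labelled siUsf2 3, 7.99%, against 27.5% to 35.6% in siControl, while Myh3 held 88.0% to 92.1% of the sarcomeric level in all 6.

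The bases before the start sites were searched for CACGTG, the E-box that USF proteins prefer, and for the general E-box CANNTG, on both strands. CACGTG is itself a CANNTG. RefSeq start sites (GRCm38.p6) were at hand for 9 of the 10 members, with 2 for Myh7, and Myh11 is named only. In the 250 bases before the start site, none of these members held CACGTG, a motif present in 6.02% of 32851 windows of the same length. Of the class II genes outside the members, Myh7b held CACGTG (first base at -79), and Myh13, Myh14 and Myh15 did not. CANNTG was present before Myh3, Myh4, Myh8, Myh6, Myh7, Myh9 and Myh10 and absent before Myh1 and Myh2, with 66.2% of all windows holding it. The windows of Myh6 and Myh10 lie wholly inside their GENCODE gene models, and the RefSeq start site of Myh4 lies before its GENCODE start. TATAAA, a core promoter element, was found before Myh3, Myh1, Myh4, Myh8 and the non-muscle gene Myh9, and in 12.4% of all windows. Its match nearest the start site began 29 bases before it in Myh3, 31 in Myh4, 32 in Myh1, 96 in Myh8 and 123 in Myh9. This search, too, took both strands. The match of Myh9 reads tttata in the printed stretch, so TATAAA lies there on the strand opposite to transcription. A match is only a run of letters, and no match says nothing about sites outside these windows or about the factor. Of the printed stretches, Myh3 and Myh1 are the sarcomeric genes with the most reads, and Myh9 is the more abundant of the 2 non-muscle genes, neither of which passed. Bases inside the GENCODE gene model are left out, among them those with the TATAAA of Myh1 nearest its start site, and capitals mark CANNTG.
Myh3, chr11:67078050-67078299, plus strand: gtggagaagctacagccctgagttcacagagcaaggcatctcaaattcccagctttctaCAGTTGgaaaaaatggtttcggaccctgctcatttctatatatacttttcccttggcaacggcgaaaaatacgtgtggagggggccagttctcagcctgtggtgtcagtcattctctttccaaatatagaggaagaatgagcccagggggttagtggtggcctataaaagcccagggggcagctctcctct
Myh1, chr11:67199852-67200051, plus strand: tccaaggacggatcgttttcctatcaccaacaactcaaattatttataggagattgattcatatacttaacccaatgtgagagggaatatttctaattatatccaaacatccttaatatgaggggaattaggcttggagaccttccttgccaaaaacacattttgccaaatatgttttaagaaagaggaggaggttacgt
Myh9, chr15:77842176-77842425, minus strand: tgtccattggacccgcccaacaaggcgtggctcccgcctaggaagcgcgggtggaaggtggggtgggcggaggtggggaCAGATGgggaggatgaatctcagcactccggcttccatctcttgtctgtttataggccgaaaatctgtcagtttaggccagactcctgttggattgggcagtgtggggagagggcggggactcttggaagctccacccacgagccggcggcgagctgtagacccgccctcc

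The remaining class II genes were mostly low. Myh13, the extraocular fast chain that ends the chromosome 11 cluster, held 1.45 and 0.871 CPM in siUsf2 1 and 2 and 0 counts in the library labelled siUsf2 3, against 9.80, 10.5 and 10.7 CPM in siControl 1 to 3. It fell in the 5 libraries (log2 fold change -3.15, edgeR adjusted p = 9.26e-10, SE 0.28) and did not pass in the 6 (edgeR adjusted p = 0.151). Myh14 and Myh7b did not pass in either, at log2 fold changes of -1.86 (SE 0.79) and -1.15 (SE 0.62) in the 5. Myh14 had 2 and 4 counts in siUsf2 1 and 2 and 6 counts, or 1.76 CPM, in the library labelled siUsf2 3, against 0.677 to 0.750 CPM in siControl, and Myh15 had at most 4 counts in a library.

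Of 14 tested genes of myosin folding and thick-filament assembly, 11 fell in the 5 libraries and the other 3 did not pass, with a median log2 fold change of -1.53. Over all genes tested in the 5 libraries, 6.4% were called lower. Unc45b, the muscle chaperone that folds the myosin head, held 4.99 and 4.89 CPM in siUsf2 1 and 2 and 7.91 CPM in the library labelled siUsf2 3, against 33.3, 32.99 and 32.2 CPM in siControl 1 to 3. Its log2 fold change was -2.74 (edgeR adjusted p = 5.83e-14, SE 0.16). Smyd1, a methyltransferase that acts in thick-filament assembly, and Mybph, a myosin-binding protein, were at -1.81 (SE 0.11) and -2.47 (SE 0.11). The list's median was -1.24 with all 6 libraries, where Smyd1 was the member called and 0.042% of all genes tested were called lower.

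Of 8 tested myosin light chain genes, 4 fell in the 5 libraries and 4 did not pass, with a median log2 fold change of -0.79. Over all genes tested in the 5 libraries, 6.4% were called lower. Myl4, the embryonic and atrial essential chain, Mylpf, the fast regulatory chain, and Myl1, the fast essential chain, were at -3.07 (SE 0.15), -2.19 (SE 0.14) and -1.84 (SE 0.13). With all 6 libraries the list's median turned to 0.12 and 0 of the 8 were called, where 0.042% of all genes tested were called lower. The library labelled siUsf2 3 held 187 CPM of Mylpf and 123 CPM of Myl1, above every siControl library, unlike the sarcomeric heavy chains in the same library. Myl4 and Myl6b, which also fell, were at 15.2 and 16.7 CPM there, below siControl at 41.1 to 49.7 and 21.2 to 24.1 CPM. Myl6, which did not pass, was at 466 CPM there, against 48.0 to 63.1 CPM in siControl. The rise in that library was thus neither shared by all light chains that fell nor limited to them.

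Of 13 tested myosin kinase and phosphatase genes, 3 rose in the 5 libraries, 1 fell and 9 did not pass, with a median log2 fold change of 0.21. Over all genes tested in the 5 libraries, 4.97% were called higher and 6.4% lower. With all 6 libraries 0 of the 13 were called, and the adjusted p was 0.0673 for Mylk4, 0.233 for Mylk and 0.368 for Rock2 (edgeR). Mylk4, a light chain kinase family member, was the one that fell, at -2.51 (edgeR adjusted p = 4.90e-09, SE 0.23). Mylk, the smooth muscle and non-muscle light chain kinase, and Rock2, a kinase that raises light chain phosphorylation, rose by 0.62 (edgeR adjusted p = 9.79e-04, SE 0.12) and 0.53 (edgeR adjusted p = 6.75e-05, SE 0.09). Rock2 held 693 and 697 CPM in siUsf2 1 and 2 and 558 CPM in the library labelled siUsf2 3, against 469, 440 and 517 CPM in siControl 1 to 3. Of 15 tested unconventional myosins, 3 rose in the 5 libraries, 1 fell and 11 did not pass, and 0 were called with all 6. The same shares over all genes, 4.97% higher and 6.4% lower, stand beside the 5-library counts. Myo18a, a myosin-18 of the actin cytoskeleton, fell by 0.46 in log2 terms (edgeR adjusted p = 7.63e-04, SE 0.09), while Myo5a, a cargo transporter, rose by 0.33 (edgeR adjusted p = 0.0108, SE 0.09). The call of Myo5a ended without siUsf2 1 (adjusted p = 0.123), without siUsf2 2 (0.0909) and without siControl 1 (0.0534).

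Of 14 tested regulators of heavy chain transcription, 6 fell in the 5 libraries, 3 rose and 5 did not pass, with a median log2 fold change of -0.25. Over all genes tested in the 5 libraries, 6.4% were called lower and 4.97% higher. With all 6 libraries 0 of the 14 were called, and the adjusted p was 0.113 for Myog, 0.0694 for Tead4 and 0.15 for Mef2a (edgeR). Myog, a basic helix-loop-helix factor of terminal differentiation, held 282 and 330 CPM in siUsf2 1 and 2 and 522 CPM in the library labelled siUsf2 3, against 1036, 1156 and 918 CPM in siControl 1 to 3. Tead4, which binds the MCAT element of muscle promoters, and Mef2a, a MADS-box partner of the myogenic factors, were at log2 fold changes of -1.25 (SE 0.12) and -0.52 (SE 0.09). Against the list's median, Eya1 (0.41, SE 0.10), Myf5 (0.37, SE 0.11) and Nfatc1 (0.34, SE 0.11) rose. Nfatc1 was at the threshold (edgeR adjusted p = 0.0499), and DESeq2 did not call it (adjusted p = 0.0669). Its call also ended without siUsf2 1, siUsf2 2, siControl 1 or siControl 2 (adjusted p = 0.228, 0.269, 0.127 and 0.089). The call of Myf5 ended without the same 4 libraries (adjusted p = 0.363, 0.0659, 0.0769 and 0.0616), and that of Eya1 without siUsf2 1 (0.197) or siControl 2 (0.0539).

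**Figure D3:**
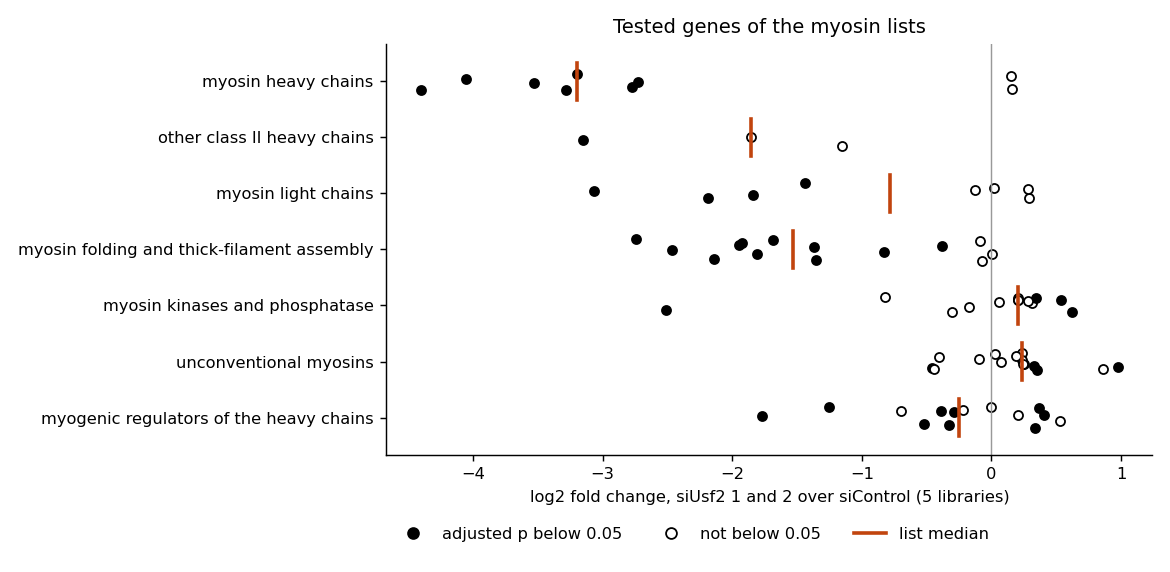
Log2 fold change (siUsf2 1 and 2 over siControl, 5 libraries) of each tested gene in 7 lists of myosin-related genes, filled where the edgeR adjusted p was below 0.05, with the list median as a bar. Heavy chains and genes of thick-filament assembly lie mostly below 0, with medians of -3.20 and -1.53, and unconventional myosins lie around 0.24.

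The 5 genes whose pattern over the 6 libraries was most like that of Myh3 were sought among 9621 protein-coding genes whose log2 CPM averaged 3 or more. Likeness was the root-mean-square difference of log2 CPM centred on its mean over libraries. Cacna1s, the voltage sensor of skeletal muscle, came first at 0.12, then Myl4 at 0.17, the calcium store protein Casq2 at 0.28, the muscle creatine kinase Ckm at 0.30 and Unc45b at 0.30. Cacna1s held 2.02 and 2.01 CPM in siUsf2 1 and 2 and 6.74 CPM in the library labelled siUsf2 3, against 20.96, 16.1 and 25.01 CPM in siControl 1 to 3. The library labelled siUsf2 3 was among those used to choose these genes.

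Markers of the labelled cell type were present, as all 8 myoblast and muscle markers were detected, with a summed level of 2660 to 2765 CPM in siUsf2 1 and 2 and 3747 CPM in the library labelled siUsf2 3, against 3749 to 4488 CPM in siControl. Myod1, the myoblast determination factor, was at 222 and 247 CPM in siUsf2 1 and 2 and 265 CPM in the library labelled siUsf2 3, against 253 to 303 CPM in siControl. Both siUsf2 1 and 2 lay below every siControl library, as for 19.5% of all genes tested in the 5 libraries. The library labelled siUsf2 3 lay within the siControl range. Of 8 smooth muscle markers, Myocd was at 0 in all libraries and Tagln stayed below 1 CPM, and the summed level was 2939 to 3076 CPM in siUsf2 1 and 2 and 4433 CPM in the library labelled siUsf2 3, against 3309 to 3740 CPM in siControl. Most of this sum was Acta2 and Des, and Des is also in the muscle list. Lmod1 and Cnn1, which are lower in level, went the other way, with Lmod1 at 31.9 and 30.0009 CPM in siUsf2 1 and 2 and 28.4 CPM in the library labelled siUsf2 3, against 13.7 to 15.7 CPM in siControl. Cnn1 was at 4.43 and 3.88 CPM in siUsf2 1 and 2 and 5.56 CPM in the library labelled siUsf2 3, against 0.452 to 1.25 CPM in siControl. Smtn was at 109 and 96.2 CPM in siUsf2 1 and 2 and 152 CPM in the library labelled siUsf2 3, against 86.3 to 96.4 CPM in siControl. Of 8 cardiac markers, Tbx5, Nppb and Myl7 were at 0, and the sum was 20.9 to 22.6 CPM in siUsf2 1 and 2 and 28.7 CPM in the library labelled siUsf2 3, against 22.9 to 26.6 CPM in siControl. Sums of 5 endothelial, 5 leukocyte and 5 adipocyte markers were at most 4.69, 3.37 and 2.93 CPM in any library. The endothelial sum was 3.08 to 3.29 CPM in siUsf2 1 and 2 against 1.28 to 2.94 CPM in siControl. The adipocyte sum was 0.938 to 1.01 CPM in siUsf2 1 and 2 against 0.250 to 0.395 CPM in siControl, and the part of these sums, or of the muscle and smooth muscle sums, in the heavy chain results was not tested.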

How the data were processed

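Per the submitters' processing notes, reads were handled with FastQC, Trimmomatic, HISAT2, featureCounts and DESeq2 on build mm10. No source used here states their versions, roles or strand setting, or the annotation. The authors deposited whole-number counts per Ensembl gene with no normalization, 1 column per library. A second deposited table was not used, since it holds the same counts scaled to library totals. Of 55414 identifiers, 52081 were found in GENCODE M21 (GRCm38), which gave names, coordinates and exon lengths. Genes were tested with edgeR 4.0.16 in R 4.3.3 (filterByExpr with at least 10 counts at the median depth, TMM, robust quasi-likelihood test, two-sided, Benjamini-Hochberg over all genes tested, called below an adjusted p of 0.05). SE is the size of the log2 fold change divided by the root of its F statistic. Medians of log2 fold changes are descriptions without a test. CPM values were computed from the counts and library totals. Intervals are exact 95% intervals for counting error only. Alternatives used DESeq2 1.42.0 and limma 3.58.1 (voom). The tests were tried on simulated counts with the same small dispersion for all genes and no library whose reads were assigned differently. This does not tell how the 6-library test behaves. There the fitted coefficient of variation between libraries was 40.0%, against 9.25% in the 5. Coding sequences were aligned with MAFFT 7.526. Sequences before start sites are from RefSeq. Replicate pairs without the library labelled siUsf2 3 differed by more than counting noise (chi-square per degree of freedom 4.18 to 11.9), so none was treated as a repeat. Non-member genes named are up to 3 per list by p, those called against the list's median, and the 5 nearest to Myh3. Myl6, Myl6b, Hspa8 and Hsp90aa1 are named besides for their levels in the library labelled siUsf2 3. Members and lists were chosen with earlier results of these data known. One gene that this rule names is not reported here.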

Additional observations from a re-analysis of the deposited data

How the results depend on the processing

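Over all genes, the 6-library counts of 0 higher and 7 lower moved to 4 lower with RLE, to 0 lower with upper-quartile normalization, to 12 higher and 104 lower with no filter, to 296 and 410 with DESeq2 and to 19 and 85 with limma-voom, and without each library in turn they ranged from 0 to 855 higher and 0 to 1102 lower; 1753 genes had an unadjusted p below 0.05. The 5-library counts of 855 higher and 1102 lower ranged from 349 to 1596 and from 519 to 1964 without each library in turn. A replicate block gave 0 lower in the 6 libraries and 1719 higher and 2270 lower in the 5. The labels do not say that numbers pair libraries, so the numbers were not taken as pairs. Deviations of same-numbered libraries from their group means had r = -0.10, -0.02 and -0.10. These values cannot decide on pairing. With each siControl library, siUsf2 1 and 2 had nearly the same r, and the library labelled siUsf2 3 had the opposite sign. With the block in the 6 libraries Myh6 lost its call (adjusted p = 0.739). The cause of these shifts was not tested. Myh1, Myh2, Myh3, Myh6, Myh7 and Myh8 kept direction and call in the 5 libraries under every alternative run, and Myh9 and Myh10 remained without a call and with a positive sign. Myh4 gave no value with DESeq2, with a filter of 1 CPM in 2 libraries, or without siControl 1 or 3. Where an siUsf2 library was left out of the 5, the other was assumed to vary like siControl. Counts of 10 or fewer in siUsf2 libraries limit Myh2, Myh4, Myh6, Myh7, Myh8 and Myh11. The 5-library extremes were without siUsf2 1 (349 and 519) and without siControl 3 (1596 and 1964), and the 6-library count above 0 was without siUsf2 3.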
